A study of Mus musculus with 24 samples.

Results

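Livers of Cyp1b1-null mice on the vitamin A sufficient diet were compared between weaning and birth, on 4 of the 24 arrays of the series. The members were all arrays that the labels give as Cyp1b1-null and vitamin A sufficient, leaving out the R-Cyp1b1-null line. They comprised 2 arrays of male liver at postnatal day 21 (PN21), each of RNA pooled from 2 mice, and 2 arrays of newborn liver (PN0), each of a pooled litter. Every dam received her defined diet from embryonic day 4.5 until the tissue was taken, so both ages share it. Cyp1b1-null deficient liver (2 PN21 and 2 PN0 arrays) and wild type C57Bl/6J sufficient liver served as comparators. The wild type group had 3 PN21 arrays, all of 1 pool of 4 male mice and counted as 1 sample, and 2 PN0 arrays of pooled litters. The labels do not say which bases the null allele lacks.

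The liver of a newborn mouse is still a blood-forming organ, in which red cell, granulocyte and platelet precursors lie between hepatocytes that make alpha-fetoprotein and fetal growth factors. By weaning, blood formation has moved to bone marrow and spleen, and hepatocytes have taken up the zonated metabolism of the adult organ. CYP1B1 is a cytochrome P450 that oxidises oestrogens, retinoids and fatty acids and is made in hepatocytes only at low levels.

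Values are log2 signals of Agilent probes, set to 0 at the 75th percentile of each array, and a difference is PN21 minus PN0 on that scale, so that 1 unit is a doubling. The 75th percentile signal was 308.0 and 357.2 on the PN21 arrays and 427.5 and 517.4 on the PN0 arrays. Cyp1b1 itself, read by a probe whose relation to the deletion is not given, had levels of 0.38 and 0.43 at PN21 and 0.16 and 0.93 at PN0 and so checks no genotype label (-0.14 ± 0.75, SE, adjusted p = 0.988). The 10 defining hepatocyte markers were above background on all 4 arrays, and none was called different by limma (0 also at an unadjusted p under 0.05, median difference 0.57). All 10 differences were above 0, from 0.30 to 1.41, as were those of 12314 of all 20533 genes. In a fit of the 4 null groups alone 3 of them were called higher, as were 3655 of all genes. All 8 null arrays of the series were scanned on the same day, but the PN21 arrays lay on 1 slide and the PN0 arrays on another, so slide and age cannot be told apart.

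PN0 sample 2 stood apart in genes of other tissues. Summed linear levels of 37 skeletal muscle genes were 4.64 and 3.86 at PN21, against 10.5 in PN0 sample 1 and 1313 in PN0 sample 2. For 27 exocrine pancreas genes the sums were 27.4 and 23.5 at PN21, against 20.3 in PN0 sample 1 and 129 in PN0 sample 2. Acta1, skeletal muscle actin, read -5.07 and -4.54 at PN21, -1.40 in PN0 sample 1 and 7.27 in PN0 sample 2. Of the muscle genes, 1 was below background in PN0 sample 2 and 15 on both PN21 arrays. The median difference of the muscle list was -4.57, and -1.33 without PN0 sample 2. That of the pancreas list was -1.72, and 0.16 without it. Their 3 calls, the perinatal myosin Myh8, the slow troponin Tnnt1 and the secretory cell factor Bhlha15, were all lost without that sample (adjusted p = 0.609, 0.316 and 0.555). Each leading count below is therefore given with and without it. Without it 1 PN0 array remains, so the loss of that signal and the loss of an array cannot be told apart. Calls were also lost on leaving out either PN21 array.

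**Figure D1:**
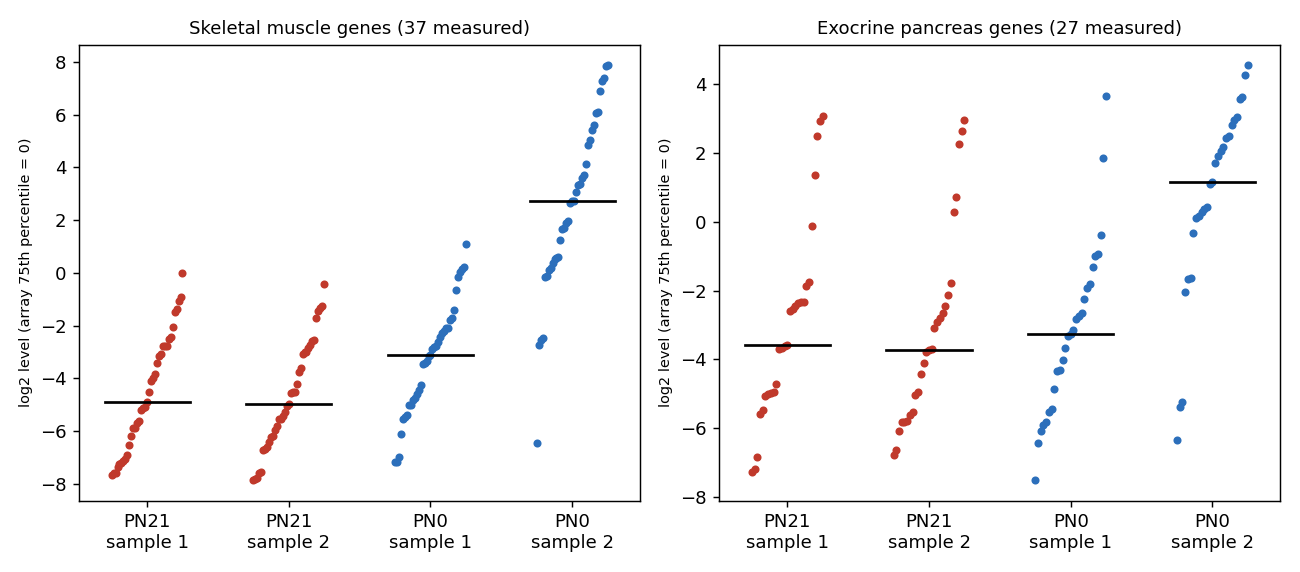
Log2 level of each measured skeletal muscle gene (left) and exocrine pancreas gene (right) on the 2 PN21 arrays (red) and the 2 PN0 arrays (blue). Each point is a gene, sorted by level within its array, and bars are medians. PN0 sample 2 is the array on which both lists lie highest.

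Sex also changed with age. Kdm5d, a Y-linked histone demethylase, read -2.07 and -1.80 at PN21 and was not well above background on either PN0 array (-7.51 and -7.75). Xist, the RNA that coats the inactive X chromosome, was not well above background at PN21 (-7.33 and -7.28) and read 4.0 and 3.1 at PN0. The labels give the PN21 mice as male and the newborns as pooled litters. Of the 4 Y-linked genes measured, Ddx3y and Eif2s3y were above background on 1 PN0 array, sample 2, and Kdm5d and Uty on neither. Sex and age cannot be told apart for these genes or for others that differ between male and female newborns.

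**Figure D2:**
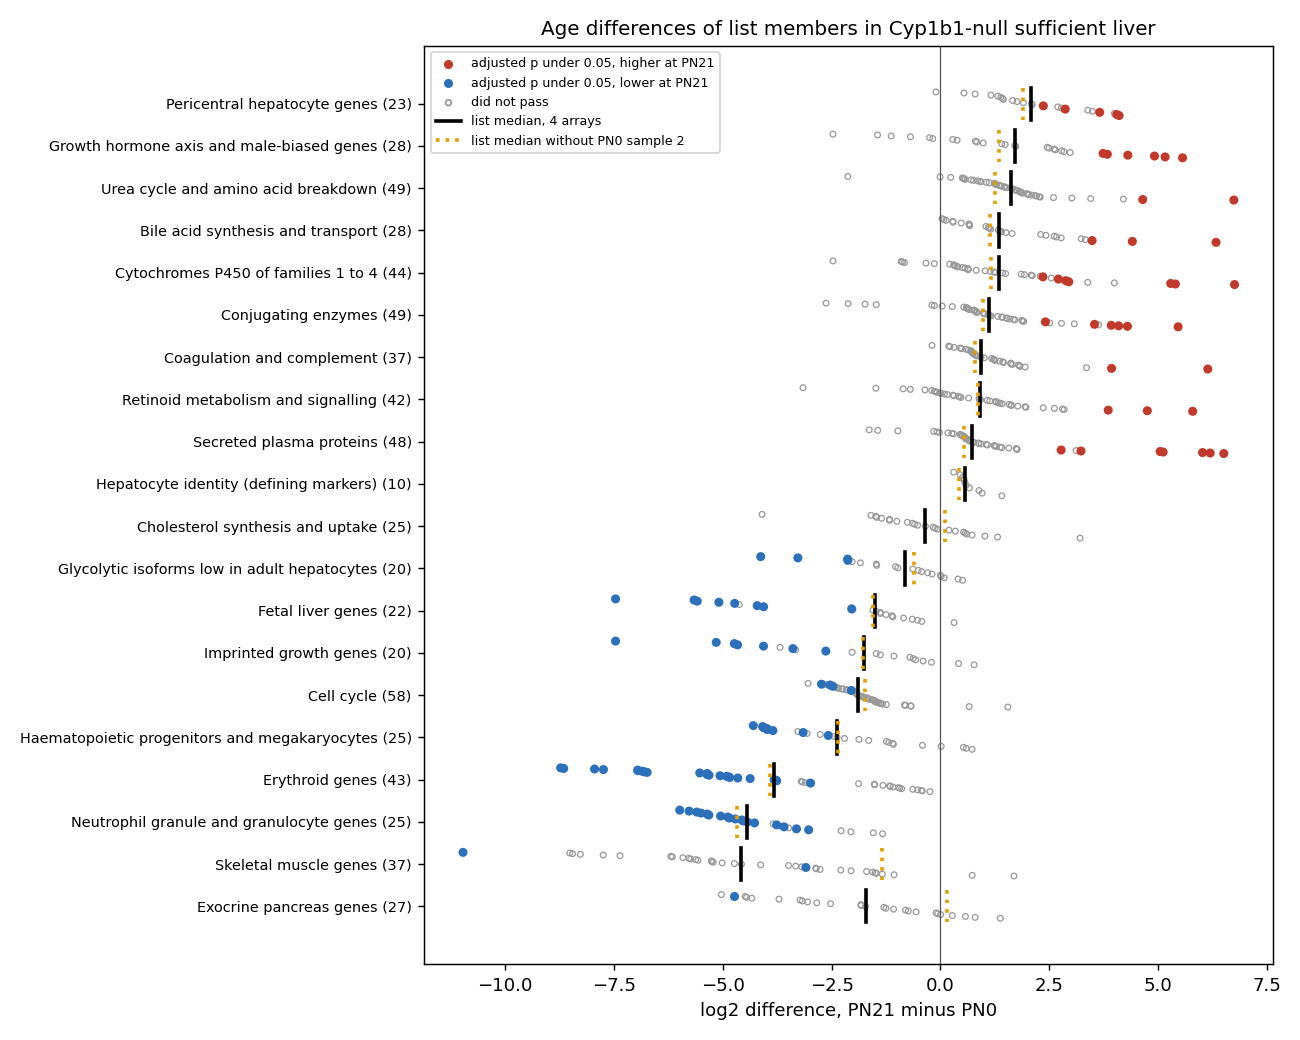
Log2 difference, PN21 minus PN0, of every measured member of 20 gene lists (number measured in parentheses). Red and blue points passed limma at an adjusted p under 0.05 (higher and lower at PN21), open points did not. Black bars are list medians with all 4 arrays and dotted bars without PN0 sample 2, which moves the muscle and pancreas medians most.

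Of 20533 genes tested, 607 were called (limma, Benjamini-Hochberg adjusted p under 0.05, 2.96% of the genes). At PN21, 231 were higher (1.13%) and 376 lower (1.83%). In the counts of list members below, a gene that rose or fell is one that was called. The median difference over all genes was 0.19. Without PN0 sample 2 the calls numbered 192 (62 higher and 130 lower, 0.302% and 0.633% of the genes, 0.935% in all), of which 188 were among the 607. For every called gene the PN21 and PN0 arrays did not overlap, as was so for 73.9% of all genes. Of the 607, 278 were also called in the same direction in wild type sufficient liver, which is 45.8% of the null calls and 74.1% of the 375 wild type calls (1.83% of the genes). The null and wild type comparisons share no array, but both draw their error from 1 fit of all 10 groups. Their calls are therefore not independent.

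Red cell precursor genes fell widely and far. Of 43 erythroid genes, 24 fell and none rose, with a median difference of -3.82, and 18 fell without PN0 sample 2 (median -3.91). Ahsp, the chaperone of free alpha-globin, had levels of -0.68 and -1.10 at PN21 and 7.0 and 6.70 at PN0 (-7.73 ± 0.71, SE, adjusted p = 1.58e-05). Both PN21 arrays lay more than 7 units below both PN0 arrays. Hemgn, a nuclear protein of erythroid precursors, read -4.73 and -5.48 at PN21 and 3.50 and 3.72 at PN0, and only 1 of the 2 PN21 arrays was above background (-8.72 ± 0.83, adjusted p = 2.14e-05). Ermap, an erythroid membrane adhesion protein, was not well above background at PN21 and read 2.57 and 2.77 at PN0, at least 298-fold lower at PN21. Such a bound sets the mean of the brighter group against the dimmer group's, where each dim array takes the higher of its own probe signal and its lowest signal among probes above background. The transcription factor Tal1, which directs blood stem cells and red cell precursors, fell by 4.84 (-1.30 and -1.56 at PN21, 3.1 and 3.71 at PN0, adjusted p = 1.58e-05). Slc4a1, the red cell anion exchanger, changed by -5.35 and Icam4, a red cell adhesion molecule, by -4.91. Alas2, the erythroid enzyme that starts haem synthesis, did not pass (4.0 and 3.69 at PN21, 5.64 and 5.07 at PN0, -1.51 ± 0.86, adjusted p = 0.541). The embryonic globin genes did not pass either, with differences of -0.94 for Hbb-y and -3.82 for Hbb-bh1. Hbb-bh1 was not well above background at PN21 (-6.91 and -7.67), so its fitted difference rests on background values there. In bulk liver, fewer cells of a type and less RNA per cell cannot be told apart.

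The start regions of erythroid genes are shown because these genes fell together. They were searched on both strands for AGATAA, the core bound by GATA factors, in the 250 bases before and 50 after each RefSeq gene start (GRCm38.p6). A window was at hand for 30 of the 43 erythroid genes, of which 10 (33.3%) held the motif, and for 17 of the 24 called ones, of which 8 (47.1%) did. Of all 13298 measured genes with a window, 7.95% held it, while 13.5% of the 282 windows of genes called lower and 20.1% of the 139 windows of genes called higher did. In the 3 examples, 5′ to 3′ on the strand of the gene, capitals mark AGATAA or its reverse complement TTATCT.
Hemgn, chr4:46404134-46404433, minus strand: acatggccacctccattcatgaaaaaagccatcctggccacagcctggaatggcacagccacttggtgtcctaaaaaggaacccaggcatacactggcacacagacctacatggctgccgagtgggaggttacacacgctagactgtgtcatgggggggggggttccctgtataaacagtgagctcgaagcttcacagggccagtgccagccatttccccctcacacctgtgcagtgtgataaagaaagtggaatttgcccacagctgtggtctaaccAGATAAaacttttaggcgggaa
Icam4, chr9:21029182-21029481, plus strand: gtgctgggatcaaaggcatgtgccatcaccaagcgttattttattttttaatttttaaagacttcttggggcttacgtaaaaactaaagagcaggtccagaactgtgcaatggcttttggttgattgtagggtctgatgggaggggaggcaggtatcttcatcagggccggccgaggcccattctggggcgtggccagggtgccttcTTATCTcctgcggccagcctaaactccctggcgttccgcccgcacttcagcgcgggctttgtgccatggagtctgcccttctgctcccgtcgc
Tal1, chr4:115056176-115056475, plus strand: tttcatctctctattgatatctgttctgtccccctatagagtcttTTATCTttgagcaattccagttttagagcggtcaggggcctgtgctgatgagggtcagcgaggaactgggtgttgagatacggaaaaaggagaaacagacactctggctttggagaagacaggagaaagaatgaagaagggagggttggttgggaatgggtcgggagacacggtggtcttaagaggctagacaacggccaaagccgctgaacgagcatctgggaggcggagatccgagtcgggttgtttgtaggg
Each of the 3 windows holds the motif once. A match describes the letters and is not evidence that a factor binds there.

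Granulocyte genes fell as widely. Of 25 neutrophil granule and granulocyte genes, 18 fell and none rose (median -4.43), and 12 fell without PN0 sample 2. Mpo, the myeloperoxidase of primary granules, had levels of 0.86 and -0.38 at PN21 and 6.11 and 5.90 at PN0 (-5.77 ± 0.59, adjusted p = 4.23e-05). S100a8, a calcium-binding protein of mature neutrophils, read 2.56 and 1.10 at PN21 and 7.0 and 6.42 at PN0 (-4.88 ± 0.65, adjusted p = 0.00035). PN21 sample 1 was higher than PN21 sample 2 for both, and the ages did not overlap. Among 25 genes of haematopoietic progenitors and megakaryocytes, 8 fell (5 without PN0 sample 2), with a median of -2.37. Gp9, a subunit of the platelet receptor for von Willebrand factor, fell by 3.84 ± 0.44 (-0.73 and -1.52 at PN21, 2.82 and 2.62 at PN0, adjusted p = 0.000101). The platelet chemokine Pf4 fell by 3.98, while the stem cell factor receptor Kit did not pass (-1.24 ± 0.42, adjusted p = 0.161).

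The stefin A genes, a mouse cluster on chromosome 16 that encodes inhibitors of cysteine proteases and is expressed in myeloid cells, fell as a group. All 8 measured (Stfa1, Stfa2, Stfa2l1, Stfa3, Csta1, Csta2, Cstdc4 and Cstdc5) fell, with differences of -8.73 to -7.30 and levels of -4.31 to 0.37 at PN21 and 4.17 to 8.08 at PN0. Without PN0 sample 2 the largest of their adjusted p was 0.0074. The probes are shown because not all are independent readouts. The Csta1 and Cstdc5 probes share 45 bases, in capitals below (coordinates in mm9, as the files give them, probes on the minus strand).
Csta1, chr16:36122294-36122353: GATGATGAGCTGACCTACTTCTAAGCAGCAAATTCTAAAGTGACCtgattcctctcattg
Cstdc5, chr16:36359525-36359584: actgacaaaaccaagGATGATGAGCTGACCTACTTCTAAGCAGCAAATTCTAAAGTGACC
Over the 28 pairs of the 8 probes, 18 to 47 bases were identical. The probes of Stfa2, Stfa2l1 and Cstdc4 shared at most 25 with any other. Probes that share many bases may bind each other's transcripts, which was not tested, so the 8 falls are uncertain as separate results.

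Cell cycle genes lay lower at PN21 in 56 of 58 cases, with a median difference of -1.88, but 4 were called and none without PN0 sample 2. The called ones were Top2a, the topoisomerase that untangles replicated DNA (-2.05), Uhrf1, which maintains DNA methylation (-2.47), the replication helicase subunit Mcm2 (-2.53) and Ube2c, a ubiquitin-conjugating enzyme of mitosis (-2.73). Top2a read -0.07 and -0.06 at PN21 and 1.88 and 2.09 at PN0 (± 0.46, adjusted p = 0.0199). Mki67, a marker of dividing cells, read 2.21 and 2.33 at PN21 and 5.01 and 5.02 at PN0 without passing (-2.75 ± 1.02, adjusted p = 0.211). The error comes from all 10 groups of the series. When 2 arrays of other groups that correlated least with their age group were left out, 42 of the 58 fell and none rose, against 17.2% of all genes called in that fit (9.24% higher and 7.93% lower). TTTGAA, the core of the element through which cell cycle genes are repressed in resting cells, was in the windows of 25 of 46 cell cycle genes (54.3%), against 13.4% of all windows, on either strand.

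Part of the fetal liver and imprinted growth genes fell. Both lists hold Dlk1 and Igf2, so their counts overlap. Of 22 fetal liver genes 8 fell (4 without PN0 sample 2, median -1.51), and of 20 imprinted growth genes 7 fell (4 without PN0 sample 2, median -1.75). Dlk1, a membrane protein of fetal hepatoblasts, had levels of -2.54 and -3.47 at PN21 and 4.10 and 4.80 at PN0 (-7.46 ± 0.78, adjusted p = 5.17e-05). Meg3, the maternally expressed long RNA from the same imprinted region, fell by 4.66, and Plagl1, an imprinted zinc finger transcription factor, by 2.63. The RNA-binding proteins Igf2bp1 and Lin28b of fetal tissue were called lower, neither being well above background at PN21, and Lin28b was at least 11.4-fold lower there (adjusted p = 0.0125).

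Igf2, the fetal insulin-like growth factor, remained well detected at weaning. It read 3.72 and 3.59 at PN21 and 7.64 and 7.80 at PN0 (-4.06 ± 0.59, adjusted p = 0.000785; -3.98 without PN0 sample 2). Its second probe gave -4.43. In Cyp1b1-null deficient liver Igf2 averaged -0.24 ± 1.75 at PN21 and 7.69 ± 0.21 at PN0 (SD, n = 2 each). In wild type liver it averaged -1.83 ± 0.63 at PN21 (SD over 3 arrays of 1 pool) and 8.75 ± 0.38 at PN0. The fall in null sufficient liver was thus smaller than that in wild type by 6.51 ± 0.93 (SE, adjusted p = 0.0289 for the difference of the 2 falls). Its difference from the fall in null deficient liver, 3.87 ± 0.83, did not pass (adjusted p = 1.00). The difference from wild type lost its call without any 1 of the null sufficient arrays (adjusted p = 0.0655 to 0.214) or PN0 wild type arrays (0.104 and 0.256). It also lost it when probes were averaged (5.72, adjusted p = 0.918), after quantile normalization alone (1.00) or with normexp (0.133), after scaling to the median (0.23), without the filter on dim probes (0.051) and in a fit of the groups compared alone (0.0616). The 2 probes, both on the minus strand of chromosome 7, are given since they read the same transcript at different sites.
Igf2 probe 1, 5′ to 3′: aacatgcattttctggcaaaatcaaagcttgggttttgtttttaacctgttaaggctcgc
Igf2 probe 2, chr7:149837115-149837174 (mm9): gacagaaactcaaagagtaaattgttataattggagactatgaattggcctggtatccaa

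Afp, which encodes the main plasma protein of the fetus, read 5.55 and 4.80 at PN21 and 9.50 and 9.26 at PN0 (-4.21 ± 0.87, adjusted p = 0.0117; 0.0937 without PN0 sample 2). The PN21 average of Afp was 3.19 ± 0.74 in null deficient liver (SD, 2 arrays) and 0.95 ± 0.35 in wild type liver (SD over 3 arrays of 1 pool). At PN0 the averages were 9.34 and 10.17. Its fall was 5.02 ± 1.37 smaller than in wild type, which did not pass (adjusted p = 1.00) but did without the 2 arrays of low correlation (adjusted p = 0.00931). H19, the maternally expressed RNA next to Igf2, did not pass in null sufficient liver (6.86 and 6.71 at PN21, 8.19 and 8.33 at PN0, -1.47 ± 1.35, adjusted p = 0.81). Its age difference was -3.26 in null deficient and -4.35 in wild type liver, neither of which differed from it by the test. Both PN21 arrays of null sufficient liver lay above all 5 PN21 arrays of the comparators for 8 of the 22 fetal liver genes, as for 3.54% of all genes. The null deficient PN21 arrays share a slide with the null sufficient ones, while the wild type arrays lay on other slides and were scanned on other days. The Y-linked Kdm5d also read higher in wild type than in null sufficient newborns. Newborn sex and genotype therefore cannot be told apart where age changes are compared with wild type.

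**Figure D3:**
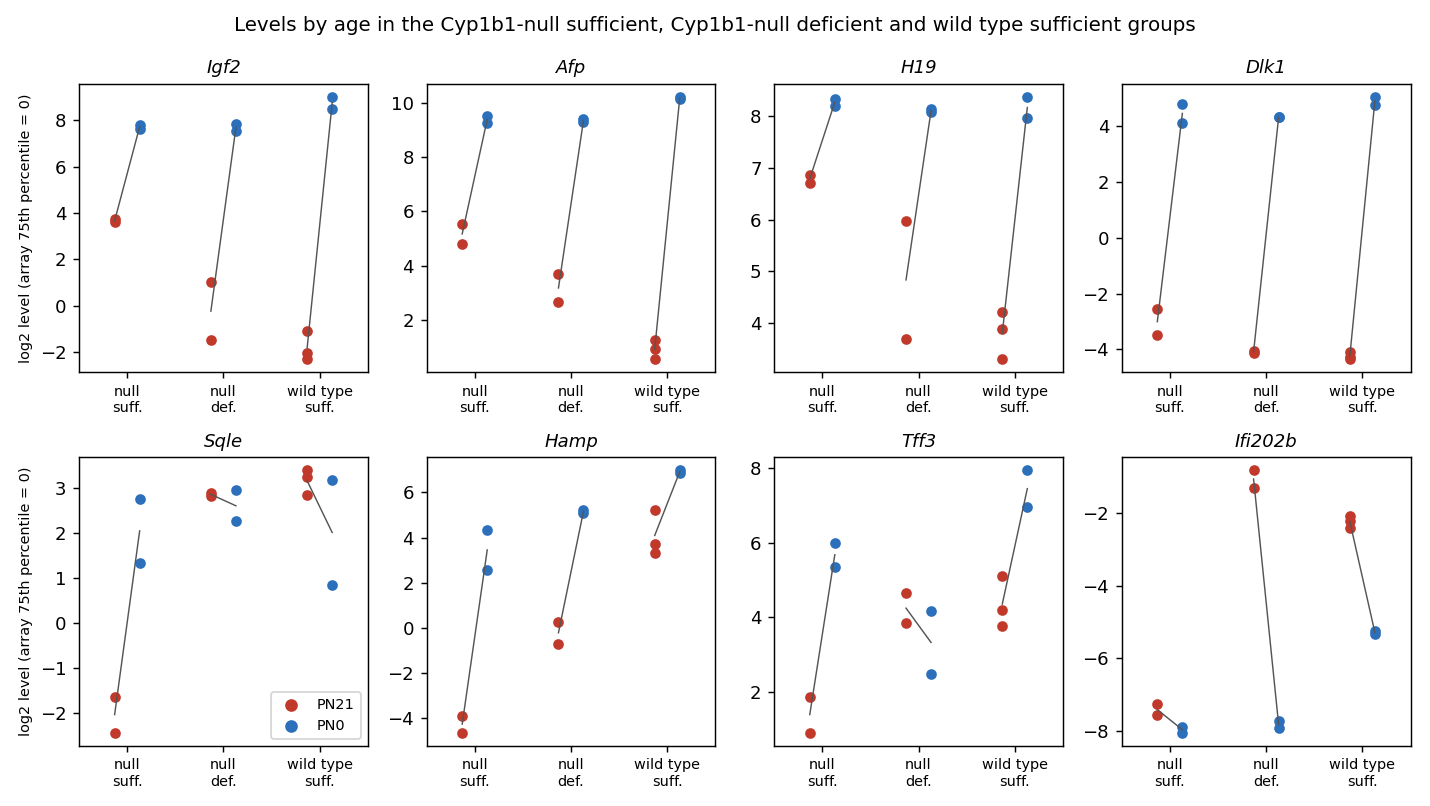
Log2 level of 8 genes on each PN21 array (red, left of each pair) and PN0 array (blue, right) of Cyp1b1-null sufficient, Cyp1b1-null deficient and wild type sufficient liver; lines join group means. At PN21 Igf2, Afp and H19 lie highest in null sufficient liver, and Sqle, Hamp, Tff3 and Ifi202b lowest.

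A minority of the adult hepatocyte metabolism genes measured were called higher, though most lay above 0. The difference was above 0 for 28 of 28 bile acid genes and 38 of 44 cytochromes P450. It was above 0 for 43 of 49 conjugating enzymes and 47 of 49 urea cycle and amino acid genes, against 12314 of all 20533. Without the 2 arrays of low correlation 16, 22, 23 and 25 of these were called higher, against 9.24% of all genes. Sult2a5, a sulfotransferase of the family that conjugates steroids and bile acids, read 3.09 and 3.30 at PN21 and was not well above background at PN0, at least 563-fold higher at PN21 (adjusted p = 1.65e-06). It kept its call without PN0 sample 2 (adjusted p = 0.000115).

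**Figure D4:**
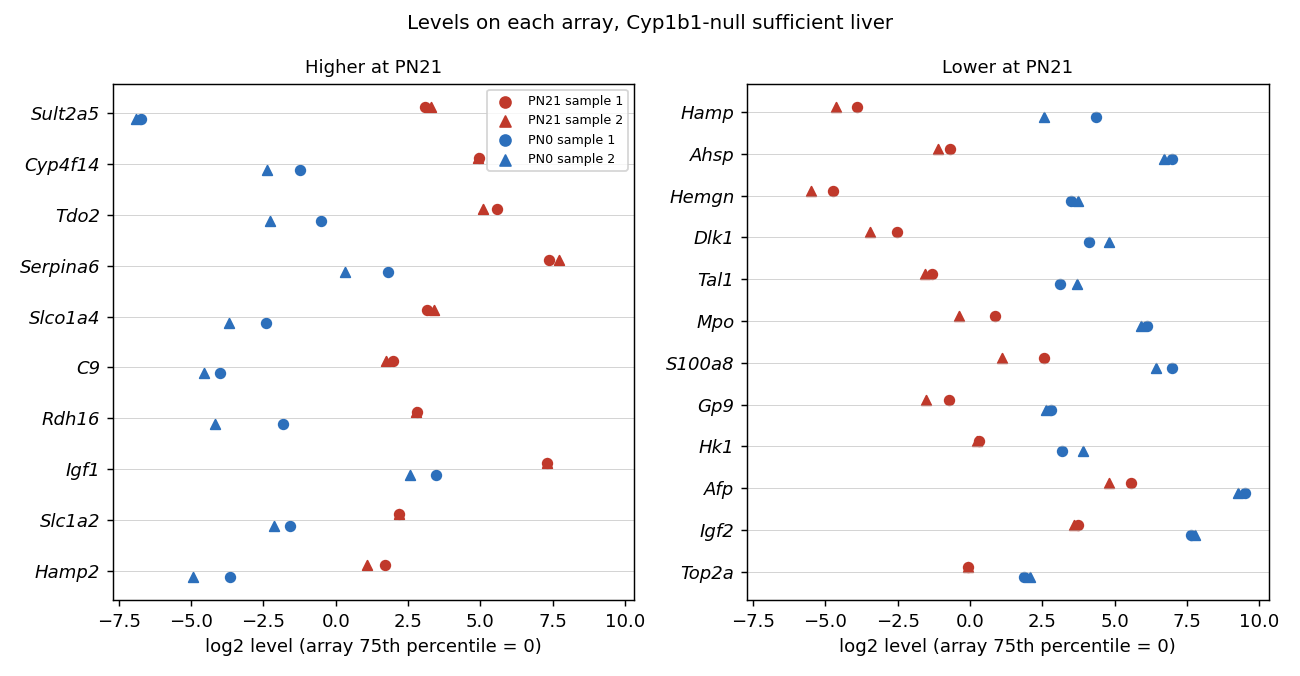
Log2 level of 10 genes higher at PN21 (left) and 12 lower at PN21 (right) on each array of Cyp1b1-null sufficient liver. Red symbols are PN21 and blue PN0, circles sample 1 and triangles sample 2; the colours do not overlap for any gene shown, and levels compare arrays and not genes.

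Of 44 cytochromes P450 of families 1 to 4, 7 rose and none fell (median 1.34; 2 rose without PN0 sample 2). Cyp4f14, a fatty acid and leukotriene hydroxylase, rose by 6.75 ± 1.00 (4.95 and 4.93 at PN21, -1.23 and -2.38 at PN0, adjusted p = 0.000942), Cyp2d13 by 5.39 and Cyp2c55 by 5.28. Cyp7a1, the rate-limiting enzyme of bile acid synthesis, did not pass (2.32 and 2.21 at PN21, -0.08 and -0.23 at PN0, 2.42 ± 0.89, adjusted p = 0.209), nor did the pericentral Cyp2e1 (2.11 ± 0.87, adjusted p = 0.284). Among 49 conjugating enzymes 6 rose and none fell (median 1.12, none called without PN0 sample 2), among them the UDP-glycosyltransferases Ugt2a3 (3.92) and Ugt3a1 (4.09). In the bile acid list 3 of 28 rose (1 without PN0 sample 2, median 1.35): the transporters Slco1a4 (6.32 ± 0.85, adjusted p = 0.000417) and Slco2b1 (4.4), which take up organic anions, and Abcg8 (3.48), which moves sterols into bile. Of 38 fatty acid oxidation and ketogenesis genes none rose and 1 fell (median 0.35, 24 above 0), against 1.13% and 1.83% of all genes. Without the 2 arrays of low correlation 5 were called higher and 3 lower, against 9.24% and 7.93% of all genes. The 1 that fell was the acyl-CoA thioesterase Acot1 (1.03 and 0.95 at PN21, 5.05 and 4.37 at PN0, -3.72 ± 0.96, adjusted p = 0.0461). Its call was lost without PN0 sample 2.

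Genes of the pericentral zone, where hepatocytes near the central vein receive Wnt signals, rose in 5 of 23 cases with none falling (median 2.09), and 2 rose without PN0 sample 2. Slc1a2, a glutamate transporter of that zone, read 2.19 on both PN21 arrays and -1.57 and -2.14 at PN0 (4.05 ± 0.57, adjusted p = 0.000634). The other 4 were Rhbg, an ammonium transporter (2.86), Notum, a Wnt inhibitor that is itself a Wnt target (4.10), the Wnt target Sp5 (3.66) and the R-spondin receptor Lgr5 (2.36). Glul, glutamine synthetase of the same zone, did not pass (1.32 ± 0.96, adjusted p = 0.705). Of 20 periportal genes, Pigr, the receptor that carries immunoglobulin A into bile, rose (3.1), a call lost without PN0 sample 2 (adjusted p = 0.34). Of 49 genes of the urea cycle and amino acid breakdown, 2 rose (median 1.63): Tdo2, which opens the tryptophan ring (5.57 and 5.11 at PN21, -0.52 and -2.28 at PN0, 6.73 ± 1.17, adjusted p = 0.0034), and Prodh, proline dehydrogenase (4.64). Both lost the call without PN0 sample 2 (adjusted p = 0.0746 and 0.0606).

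Secreted proteins rose in part. The difference was above 0 for 42 of 48 plasma protein genes. Without the 2 arrays of low correlation 17 of them were called higher, against 9.24% of all genes. Of 48 plasma protein genes 7 rose and none fell (3 without PN0 sample 2, median 0.72), while Alb, albumin, did not pass (10.35 and 10.17 at PN21, 9.70 and 9.48 at PN0, 0.67 ± 0.95, adjusted p = 0.921). Serpina6, the plasma carrier of corticosterone, read 7.39 and 7.72 at PN21 and 1.80 and 0.31 at PN0 (6.50 ± 0.94, adjusted p = 0.000819). The protease inhibitors Mug1 and Mug2 rose by 6.02 and 6.19, and the acute phase protein Orm1 by 5.11. Among 37 coagulation and complement genes, C9, the pore-forming complement component (6.14), and C4bp, an inhibitor of the pathway (3.93), rose, and C9 alone without PN0 sample 2 (adjusted p = 0.192 for C4bp). GTTAAT, part of the site of the hepatocyte factor HNF1, was in the windows of 10 of 37 plasma protein genes (27.0%), against 5.14% of all windows and 12.9% of the 139 windows of genes called higher.

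Of 28 genes of the growth hormone axis and male-biased liver expression, 6 rose and none fell (2 without PN0 sample 2, median 1.72). Igf1, the growth factor that liver makes under growth hormone, read 7.32 on both PN21 arrays and 3.49 and 2.55 at PN0 (4.30 ± 0.94, adjusted p = 0.0171; 0.218 without PN0 sample 2). Its other 3 probes gave 2.22, 3.75 and 4.09. The major urinary protein genes Mup1, Mup3 and Mup4 rose by 5.56, 5.16 and 4.91, and their probes may bind each other's transcripts. In wild type liver Mup3 differed by 10.85 and Mup4 by 9.04 between the ages, without passing the test of the difference from null sufficient liver (adjusted p = 1.00 for both). Of the 28 genes, 22 lay above 0 and 6 below, the lowest at -2.47. Hsd3b5, of the set of liver biology genes, did not pass (-2.16 and -2.48 at PN21, -1.76 and -0.61 at PN0, -1.13). The labels give the PN21 mice as male and the newborns as pooled litters, so sex and age cannot be told apart here.

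Retinoid genes bear on the diet of the study. Of 42 measured, 3 rose and none fell (2 without PN0 sample 2, median 0.91). Rdh16, a retinol dehydrogenase, had levels of 2.80 and 2.78 at PN21 and -1.84 and -4.16 at PN0 (5.79 ± 0.72, adjusted p = 0.000234). Adh4, an alcohol dehydrogenase that also oxidises retinol, rose by 4.75 ± 0.83 (adjusted p = 0.00347), and Aldh1a1, which makes retinoic acid from retinal, by 3.85 ± 1.00 (adjusted p = 0.0497). Lrat, which stores retinol as esters in stellate cells, stood at the edge of the threshold (0.67 and 0.90 at PN21, -1.31 and -1.04 at PN0, 1.96 ± 0.51, adjusted p = 0.0501). Cyp26a1, the retinoic acid hydroxylase, did not pass (1.07 ± 0.71, adjusted p = 0.65).

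Hamp, the gene of hepcidin, the hormone that closes iron export, and its near copy Hamp2 moved in opposite directions. Hamp read -3.89 and -4.65 at PN21 and 4.35 and 2.55 at PN0 (-7.72 ± 1.68, adjusted p = 0.0162; 0.0719 without PN0 sample 2). Hamp2 read 1.71 and 1.07 at PN21 and -3.66 and -4.94 at PN0 (5.69 ± 1.46, adjusted p = 0.046; 0.394 without it). All 4 arrays showed the pattern for each gene, with no overlap of ages. At PN21 Hamp averaged -0.22 ± 0.70 in null deficient liver (SD, 2 arrays) and 4.09 ± 1.00 in wild type liver (SD over 3 arrays of 1 pool). The difference of age changes did not pass for either group. The probes are compared because the genes are near copies: over 59 aligned bases 42 are identical, and capitals mark the 17 that differ (mm9, minus strand).
Hamp, chr7:31727490-31727549: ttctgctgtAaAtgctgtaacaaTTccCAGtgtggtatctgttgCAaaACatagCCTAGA
Hamp2, chr7:31707520-31707579: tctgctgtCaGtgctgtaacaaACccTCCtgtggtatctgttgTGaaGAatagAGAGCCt

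Cholesterol synthesis and uptake genes showed no called change with age in null sufficient liver, and a median difference of -0.34 (0.097 without PN0 sample 2). Limma called 0 of 25, with 3 at an unadjusted p under 0.05, and 3 higher and 2 lower without the 2 arrays of low correlation. The median difference was 1.43 in null deficient and 1.67 in wild type liver. Sqle, squalene epoxidase, read -2.45 and -1.64 at PN21 and 1.34 and 2.76 at PN0 (-4.09 ± 1.24, SE, adjusted p = 0.101). In a fit of the 4 null groups alone its adjusted p was 0.00286, but that fit called 6141 of all 20533 genes. Over the 16 other settings, that fit among them, Sqle was called in 4, with differences from -4.81 to -2.95. In the comparators the PN21 average of Sqle was 2.86 ± 0.04 (null deficient, SD of 2 arrays) and 3.16 ± 0.28 (wild type, SD over 3 arrays of 1 pool). At PN0 the averages were 2.61 and 2.01. Both PN21 null sufficient arrays lay below all 5 PN21 comparator arrays for 22 of the 25 genes, as for 7.95% of all genes, with Mvk, Ebp and Acat2 the exceptions. At PN0 both null sufficient arrays lay below all 4 comparator arrays for 1 gene, as for 8.83% of all genes. The age change was lower than in null deficient liver for all 25 genes and lower than in wild type for 22. Over all 20533 genes it was higher than in null deficient liver for 9369 and higher than in wild type for 11287. No gene of the list passed either test of the difference (limma, 2 and 7 at an unadjusted p under 0.05, against 56 and 436 of all genes). Of 39 lipogenesis genes 17 likewise lay below all 5 comparator arrays at PN21. Time of day and feeding before the tissue was taken are not given in the labels, and their part was not tested.

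**Figure D5:**
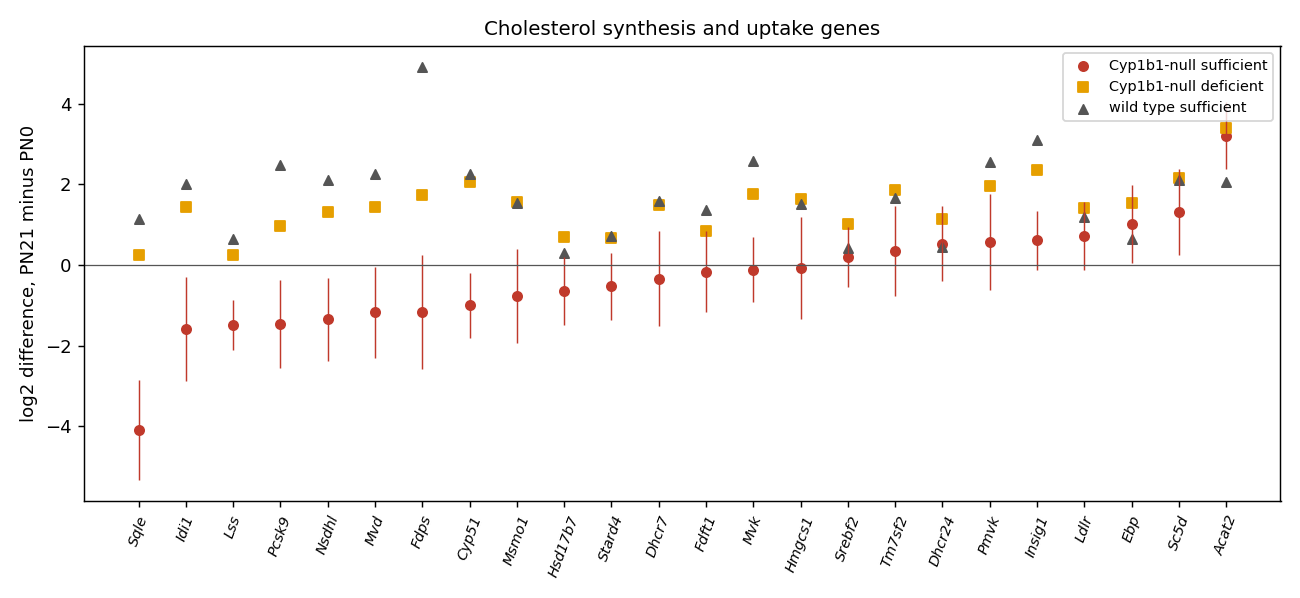
Log2 difference, PN21 minus PN0, of 24 of the 25 cholesterol synthesis and uptake genes in Cyp1b1-null sufficient (circles, bars are SE), Cyp1b1-null deficient (squares) and wild type sufficient liver (triangles), ordered by the first. Sqle has the lowest and Acat2 the highest difference in null sufficient liver, and its circles lie below the squares for all 24 shown.

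Over all genes, the difference of age changes between null sufficient and wild type liver was called for 2 genes, Igf2 and Kdm5d (0.00974%). That between null sufficient and null deficient liver was called for 1, Ifi202b, an interferon-inducible DNA sensor (0.00487%). Ifi202b was not well above background on any of the 4 null sufficient arrays. In null deficient liver it averaged -1.05 ± 0.33 at PN21 and -7.82 ± 0.13 at PN0 (SD, 2 arrays each). The fitted difference, -6.22 ± 0.80 (adjusted p = 0.0169), thus rests on background values in null sufficient liver, whose age change has no bound. At PN21 the level was at least 22.6-fold lower in null sufficient than in null deficient liver.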

How the data were processed

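RNA from mouse liver was hybridised in 1 colour to 24 Agilent arrays. Per the file headers, the deposited files hold probe intensity written by Agilent Feature Extraction 10.7.3.1, and its processed intensity was used; the submitters' processing notes also name limma. The authors' deposited series table held the same intensity values (largest relative difference 0.00497). After removal of control spots and 2048 spots marked as outliers, spots of a probe were averaged, log2 taken and the 75th percentile of each array subtracted, with no between-array quantile step. A probe was kept if all arrays of some group read it well above background (30920 of 41174), and the brightest probe stood for a gene. Of the probes, 27816 were named by accession, 5503 by current symbol and 380 by synonym through the RefSeq gene table (GRCm38.p6); 7475 kept the name in the files.

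limma 3.58.1 in R 4.3.3 was fitted to 22 samples in all 10 groups (12 residual and 3.99 prior degrees of freedom), since 2 arrays a group leave few. The 3 arrays of the wild type pool were averaged first. The call threshold was 0.05 after Benjamini-Hochberg adjustment over all genes. No probe was saturated, and the number of arrays limits the precision. Arrays are pools of mice or litters, and p-values measure the spread between such pools. Members and gene lists were chosen with earlier results of these data known. Genes were named by rule: a set of genes of liver biology, the 12 largest rises and falls, up to 5 called genes a list by smallest p, and up to 8 a test of a difference. Stfa3, Stfa2l1, Mvk, Ebp and Acat2 were chosen after their values were seen. Hbb-b1, Mup20 and Zhx2 were asked for and had no measured probe. Some genes are not reported here. The code was tested on simulated data.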

Additional observations from a re-analysis of the deposited data

Results flagged for a closer look

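Kdm5d changed with age by 5.10 more in null sufficient than in wild type liver (adjusted p = 0.00929, limma). It averaged -1.93 at PN21 and -7.63 at PN0 in null sufficient liver, and -1.83 at PN21 and -2.44 at PN0 in wild type liver. Since it was not well above background on either PN0 null sufficient array, the difference is at least 3.41, and the fitted one ranged from 0.86 to 5.68 over 20 other settings, with 11 calls. The Igf2 fall was 6.51 smaller in null sufficient than in wild type liver (adjusted p = 0.0289), a call lost under other settings. The age change of Ifi202b was -6.22 in null sufficient relative to null deficient liver (adjusted p = 0.0169), with the probe not well above background on any null sufficient array. It ranged from -6.45 to -1.25 over 20 other settings, with 11 calls. Each was singled out by the test of the difference itself, and causes were not tested.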

How the results depend on the processing

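Every one of the 103 named genes called between the ages kept its direction under each of the 16 settings tried, but not its call: 25 lost it with normexp and quantile normalization, 32 with quantile normalization, 31 with scaling to the median, 10 with slide as a random block, 9 without the filter, 4 with the mean of probes and 31 to 52 on leaving out 1 array. The 607 calls became 631 with normexp and quantile normalization, 430 with quantile normalization alone, 554 with scaling to the median (153 higher and 401 lower, a share of 27.6% higher against 38.1%), 471 without the filter on dim probes, 721 with the mean of probes and 455 with slide as a random block. They became 3526 without 2 arrays of low correlation in other groups (1897 higher and 1629 lower), 5285 with only the groups compared (57.5% higher) and 6141 with only the 4 null groups (59.5% higher), fits that draw their error from fewer groups or arrays. Leaving out 1 array gave 172 to 413 calls. The median over all genes was 0.19, and 0.03, 0.07 and 0.14 with normexp, quantile and median scaling. With replicate number as a block, 1111 genes were called between the ages, 98 in the difference from wild type and 1 in that from null deficient; deviations of same-numbered samples correlated at 0.094 in null sufficient and 0.026 in null deficient liver, so the numbers do not pair the samples. The difference from wild type had 2 calls, and 0 with normexp (242 at an unadjusted p under 0.05), quantile (341), median scaling (551) and only the groups compared (4663), 1 without the filter and with the mean of probes, and 28 without the 2 arrays; leaving out 1 array gave 0 to 2. That from null deficient had 1 call, 0 with normexp (36) and quantile normalization (29), and 0 to 2 leaving out 1 array. Some uncalled differences changed sign. Cd5l gave -0.034 with normexp and -0.019 with quantile normalization. Leaving out 1 array gave -0.82 to 1.05 for Pklr, -0.53 to 0.25 for Cyp1b1, -0.31 to 0.89 for Cyp8b1, -0.20 to 1.26 for Cpt1a, -0.57 to 0.088 for Tfrc, -6.62 to 0.25 for Myh3 and -3.48 to 1.88 for Ctrc. Causes were not tested.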

Other observations

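Glycolytic isoforms that adult hepatocytes make at low levels fell in 4 of 20 cases, with none rising (median -0.81; 2 without PN0 sample 2). Among all genes 1.83% fell and 1.13% rose. Hk1, the hexokinase of most tissues, read 0.32 and 0.24 at PN21 and 3.19 and 3.91 at PN0 (-3.27 ± 0.49, SE, limma adjusted p = 0.00106). That is the brightest of 6 probes, and the others differed by -3.48, -1.95, -1.75, -0.29 and 1.55. With the probes averaged Hk1 differed by -1.53 (adjusted p = 0.22). Slc2a3, a high-affinity glucose transporter, fell by 4.12, Hk2 by 2.13 and the lactate exporter Slc16a3 by 2.12. Ppp1r3b, which directs the phosphatase that activates glycogen synthase, rose by 3.52. Hk2, Slc16a3 and Ppp1r3b lost the call without PN0 sample 2 (adjusted p = 0.317, 0.317 and 0.124).

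Of 34 lymphocyte genes, Cd8b1, a chain of the CD8 co-receptor, rose by 3.42 and Gzma, a protease of killer cells, fell by 2.89, both calls lost without PN0 sample 2 (adjusted p = 0.189 and 0.0512). Over all genes 1.13% rose and 1.83% fell. At an unadjusted p under 0.05, 14 of the 34 passed, as did 2592 of 20533 genes. Without the 2 arrays of low correlation 4 lymphocyte genes rose and 11 fell, against 9.24% and 7.93% of all genes. Of 25 macrophage genes, Spic, a transcription factor of iron-recycling macrophages, fell by 1.51 (adjusted p = 0.041; 0.108 without PN0 sample 2), while the Kupffer cell lectin Clec4f (4.56 and 4.39 at PN21, 3.46 and 3.55 at PN0) and Cd5l (5.75 and 5.70 at PN21, 5.67 and 5.22 at PN0) did not pass. Limma called 0 of 48 extracellular matrix genes (3 at an unadjusted p under 0.05, median -0.02), 0 of 43 liver transcription factors (5, median 0.83) and 0 of 43 oxidative phosphorylation genes (0, median 0.36). The difference was above 0 for 24, 40 and 41 of these, against 12314 of all 20533 genes. Without the 2 arrays of low correlation 4, 15 and 1 of them were called higher, against 9.24% of all genes. In that fit 2, 0 and 0 were called lower, against 7.93%. Tff3, a trefoil peptide of mucous cells, read 0.91 and 1.88 at PN21 and 6.01 and 5.36 at PN0 (-4.29 ± 0.89, adjusted p = 0.0122; 0.0743 without PN0 sample 2), and differed by 0.92 between the ages in null deficient liver; the difference of the age changes did not pass (-5.21 ± 1.26, adjusted p = 1.00).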
